A study of Bos taurus with 30 samples.

Results

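The miR-30 family of the calf testis comprised the 7 rows of the deposited miRNA table whose number is 30 followed by a letter, of 1030 bovine miRNAs in all. They were miR-30a-5p, miR-30b-3p, miR-30b-5p, miR-30c, miR-30d, miR-30e-5p and miR-30f, and all 7 were among the 387 miRNAs abundant enough to be tested (a value of 1 or more in 15 or more libraries). The testes came from 30 Holstein-Friesian bull calves, with 1 small RNA library each, which had been fed 1 of 2 diets between the ages of 2 and 12 weeks. On the High diet, 15 calves drank 10 L of milk replacer daily, made from 1.5 kg of powder, had concentrate at all times and were meant to gain 1.0 kg a day. On the Moderate diet, 15 calves drank 4 L, made from 0.5 kg, ate 0.5 kg of concentrate and were meant to gain 0.5 kg a day. The question was whether early nutrition alters testis miRNAs.

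miRNAs guide Argonaute proteins to partly complementary sites in mRNAs and thereby lower the translation and stability of these mRNAs, and the short seed near the 5′ end does most of the pairing. The 5′ arms of the miR-30 family share 1 seed, so their predicted targets overlap, whereas a 3′ arm has a different seed and a different set of targets. The family is expressed in many tissues and is known for limiting connective tissue growth factor, the autophagy protein Beclin 1 and the transcription factor RUNX2.

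Values are in TMM-scaled CPM, that is, counts relative to the library's total in which a factor (TMM, a trimmed mean of log ratios) adjusts each library's size so that most miRNAs line up between libraries. They are given as mean ± SD unless stated. Depth was 6.0003 to 19.98 megareads (M reads) per library. Diet is the diet characteristic of each label, and in 18 of the 30 libraries the sample title names the opposite diet. The H or L that ends each sample code goes with the characteristic in every library. Nothing further in the labels settles which is right. Moderate replicate 5 stood apart before any comparison, in that miR-10b made up 84.8% of it, against 37.0% to 49.0% of the other 29 libraries, so results are given with and without it. miR-202, a miRNA of gonadal somatic cells, was at 1568 to 3282 in the other 29 libraries and at 1055 in Moderate replicate 5. In whole testis, fewer cells of a type and less of a miRNA per cell cannot be told apart.

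The family was moderately abundant and was dominated by 2 members. Its summed value averaged 17532 ± 2887 over the 30 libraries (n = 30), which was 1.83% ± 0.395 of the reads, and by this share it ranked 9th among miRNA numbers when all rows of a number were added up (10th by mean TMM-scaled value). miR-30a-5p, known for repressing Beclin 1, was the leading member at 7223 ± 1275 and stood 16th among single miRNAs. miR-30e-5p, whose sequence is nearly the same, followed at 5186 ± 993 and stood 20th. Together they held 67.3% to 73.4% of the family total in the 29 libraries other than Moderate replicate 5.

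The other members formed a descending ladder. miR-30d was at 3294 ± 476 and stood 29th. miR-30c, which represses connective tissue growth factor and a lipoprotein assembly protein, was at 1066 ± 157 and stood 56th. miR-30b-5p was at 665 ± 109 and miR-30f at 95.7 ± 18.4. miR-30b-3p, the other arm of the miR-30b hairpin, came last at 1.90 ± 0.493. As shares of the family total, the means were 41.2% for miR-30a-5p, 29.3% for miR-30e-5p, 18.9% for miR-30d, 6.15% for miR-30c, 3.80% for miR-30b-5p and 0.553% for miR-30f. All mature miRNAs are of similar length, so these levels need no correction for length, but how efficiently each RNA entered the libraries was not measured.

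**Figure D1:**
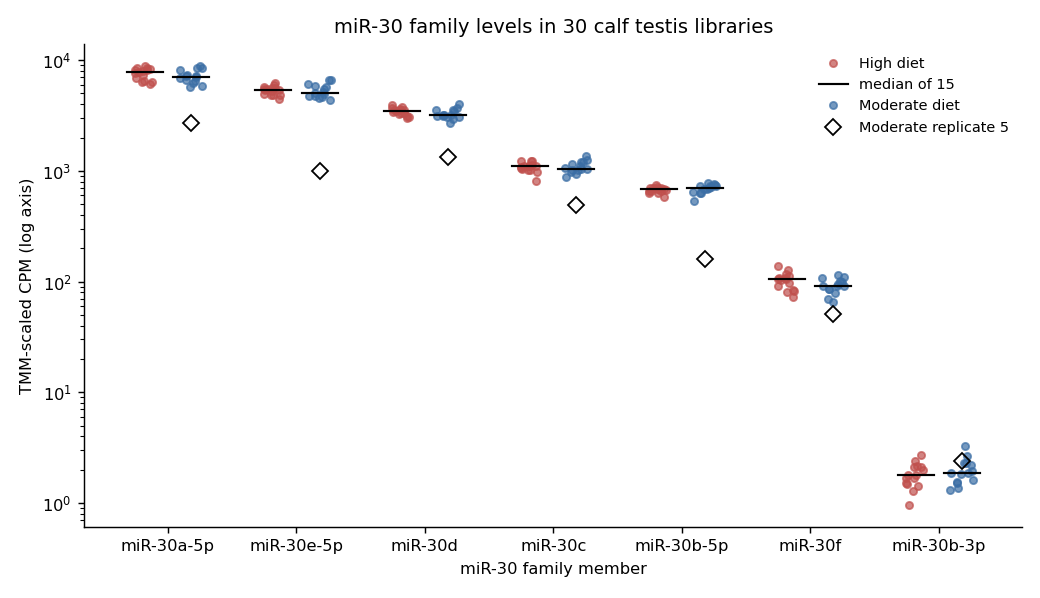
Level of each miR-30 member in every library (TMM-scaled CPM, log axis) by diet; points are calves, bars are the medians of 15 and the open diamond is Moderate replicate 5. The order from miR-30a-5p to miR-30b-3p is the same in 29 of the 30 libraries, and the points of both diets overlap for every member.

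This order was the same in 29 of the 30 libraries. miR-30a-5p exceeded miR-30e-5p in all 30 libraries, although the ranges of the members overlapped across libraries even without Moderate replicate 5 (5723 to 8868 for miR-30a-5p and 4371 to 6595 for miR-30e-5p). Their ratio, within a library, lay between 1.23 and 1.59 in these 29. miR-30e-5p exceeded miR-30d in 29 libraries, by 1.40-fold to 1.84-fold, and fell below it in Moderate replicate 5, where the ratio was 0.736. Outside that library, miR-30a-5p and miR-30e-5p were the only neighbours in the order whose ranges overlapped. The largest steps were from miR-30b-5p to miR-30f, with a median ratio of 7.15, and from miR-30f to miR-30b-3p, with one of 52.1.

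The counts behind these levels were high for all members but miR-30b-3p. miR-30a-5p rested on 5643 to 167719 reads per library, miR-30f on 108 to 2239 and miR-30b-3p on 5 to 43. Over the 29 libraries, the SD of log2(value) was 0.38 for miR-30b-3p, where counting alone gives 0.35, so its spread between calves could not be separated from counting error at this depth. For the other 6 members the SD on the log2(value + 0.5) scale ran from 0.12 for miR-30b-5p to 0.25 for miR-30f, and counting alone gave 0.0055 to 0.048. The median SD was 0.16 over the 120 tested miRNAs with a mean value of at least 100, and among these 16.7% had a smaller SD than miR-30b-5p and 62.5% a smaller one than miR-30a-5p. All values of the 7 members were whole reads within a tolerance of 0.02 read, so none of them held divided reads, while no source used here gives the rule by which reads were assigned to near-identical members.

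The miR-30b hairpin is the 1 hairpin of the family with both arms in the table. The 5p arm exceeded the 3p arm in all 30 libraries. In the 29 libraries other than Moderate replicate 5 it did so by 241-fold to 729-fold, with a median of 385-fold. In that library the ratio was 67.4, since miR-30b-5p was at 160 and miR-30b-3p at 2.38, the latter resting on 5 reads. The geometric mean of (5p + 0.5)/(3p + 0.5) came to 297 for High and 256 for Moderate (15 libraries each), with SDs of 0.34 and 0.66 on the log2 scale. The difference of 0.22 on that scale was within the spread (permutation p = 0.301, two-sided, 1 hairpin tested). Without Moderate replicate 5 it was 0.060 (permutation p = 0.604).

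**Figure D2:**
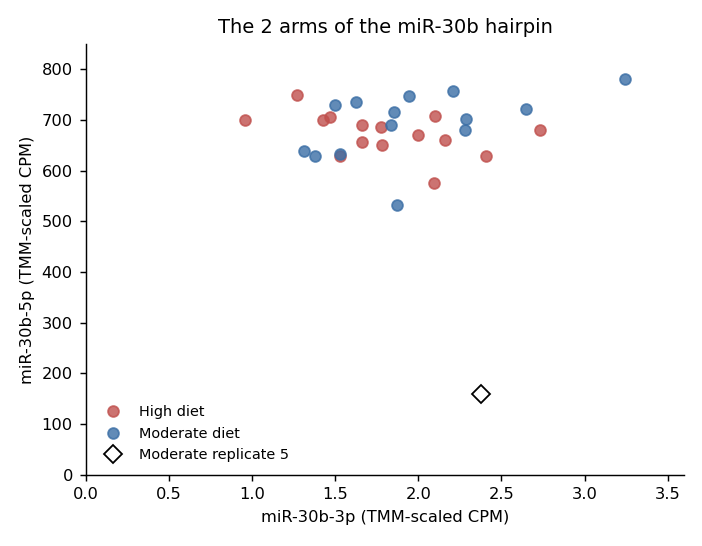
miR-30b-5p against miR-30b-3p in each library (both in TMM-scaled CPM), coloured by diet, with Moderate replicate 5 as an open diamond. The 5p arm lies between 532 and 782 in 29 libraries and at 160 in Moderate replicate 5, while the 3p arm of that library lies within the range of the others.

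The RefSeq gene table of assembly ARS-UCD2.0 lists 6 hairpin genes for the 7 members, in 3 pairs of neighbours with no other listed gene between them. MIR30A is beside MIR30F, MIR30B beside MIR30D, and MIR30C beside MIR30E, and the last pair lies within the span of NFYC, which encodes a subunit of the transcription factor NF-Y. How steadily 2 members kept their ratio from calf to calf was taken as the SD of their log2 ratio over the 29 libraries. Of the 15 pairs among the 6 abundant members, the steadiest was miR-30e-5p with its gene neighbour miR-30c, with an SD of 0.095. The second was miR-30a-5p with miR-30e-5p, which are no neighbours, at 0.097.

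The other 2 neighbour pairs were less steady. miR-30d with miR-30b-5p had an SD of 0.16 and miR-30a-5p with miR-30f one of 0.18. The median over the 3 neighbour pairs was 0.16, the same to 2 decimals as the 0.16 over the 12 other pairs. miR-30b-5p and miR-30f, the least abundant of the 6, made the least steady pair, with 0.26. Counting alone gave 0.051 for it.

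**Figure D3:**
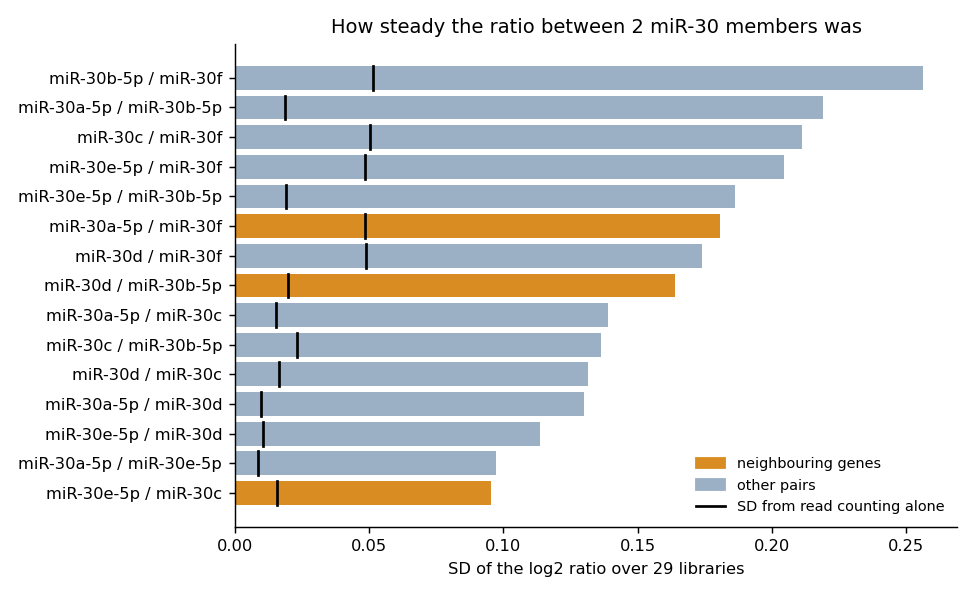
SD of the log2 ratio between 2 members over the 29 libraries other than Moderate replicate 5 (bars, orange for pairs of neighbouring genes) with the SD that read counting alone gives (black lines). The bars run from 0.095 for miR-30e-5p with miR-30c to 0.26 for miR-30b-5p with miR-30f, and all 15 exceed their black line.

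Moderate replicate 5 held less of the family than any other library, and its members were lowered unequally. The family took 0.136% of its reads, and 1.61% to 2.51% of those of the other 29. After TMM scaling its summed value was 5724, against 15008 to 21309. miR-30e-5p was lowered most, at 988 and 5.44-fold below the median of the other 29, followed by miR-30b-5p (4.30-fold). miR-30a-5p was 2.71-fold below it, miR-30d 2.48-fold, miR-30c 2.20-fold and miR-30f 1.91-fold. For these 6 members it was the lowest of the 30 libraries, whereas miR-30b-3p was within the range of the others.

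Other miRNAs moved in the same library. Among the 387 tested miRNAs, its median log2 difference from the median of the other 29 was -0.38, and 2.84% of them lay lower than miR-30e-5p, 7.24% lower than miR-30b-5p and 31.8% lower than miR-30f. The red blood cell miRNA miR-486 was at 7898 there, against 715 to 3301 elsewhere, while the other 2 red blood cell markers were below their ranges elsewhere (miR-451 at 29.01 and miR-144 at 0.476). The endothelial miR-126-5p was at 4828, against 8323 to 13727. Summed over all markers of a cell type, this library was below all others for 4 of 8 lists: endothelial cells at 5125 (8981 to 14721 elsewhere), gonadal somatic cells at 1893 (3361 to 5057), meiotic and later germ cells at 21.9 (40.5 to 265) and striated muscle at 3.33 (12.4 to 24.1). Moderate replicate 5 was within the others for leukocytes at 5425 (2292 to 6747) and epithelial cells at 20.9 (10.7 to 24.8), and above them for red blood cells, led by miR-486, at 7927 (755 to 3606). Of the meiotic and later germ cell markers, only miR-34c was below its range elsewhere, at 9.51 (32.2 to 238). In the same library miR-34b at 2.38 and miR-449a at 9.99 were within their ranges elsewhere. The leukocyte markers of Moderate replicate 5 went both ways. miR-142-3p was below its range elsewhere, at 52.3 (84.6 to 197). Above theirs were miR-146a at 786 (123 to 675) and miR-155 at 314 (150 to 295). The other leukocyte markers were within theirs, among them miR-146b at 2958 (171 to 3678). The smooth muscle sum of 149159 (83216 to 178449) was nearly all miR-143, while miR-145 was at 124.6 there, below its 187 to 465 elsewhere. The part of these shifts in the low miR-30 values was not tested.

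**Figure D4:**
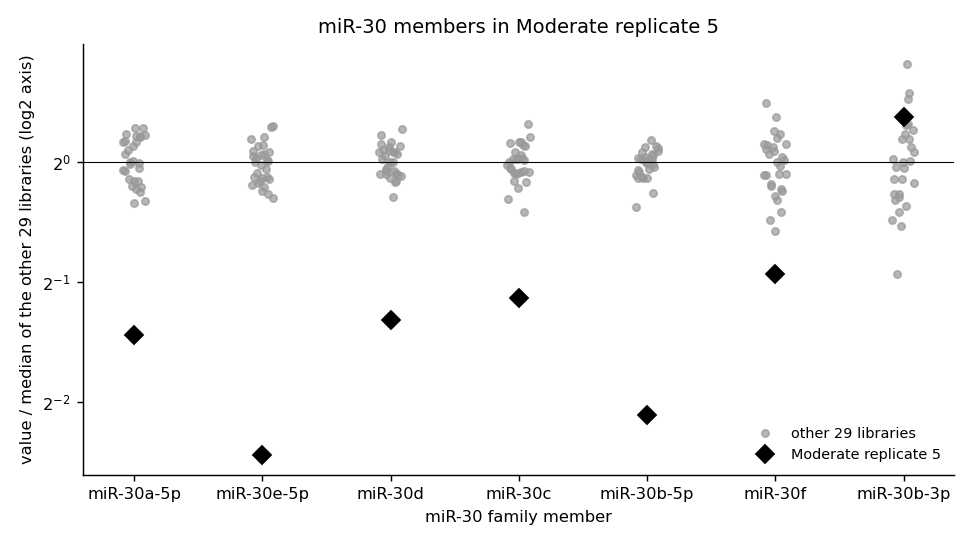
Each library's value divided by the median of the other 29 libraries (log2 axis) for each miR-30 member, with Moderate replicate 5 as black diamonds. The diamond lies below all grey points for 6 members, lowest for miR-30e-5p (5.44-fold below the median), and within them for miR-30b-3p.

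Diet did not move any miR-30 member past the test. In limma, 0 of 7 passed an adjusted p of 0.05, where 4.91% of the 387 tested miRNAs did, and 0 had an unadjusted p under 0.05, where 21.2% of all tested did. Their adjusted p-values ran from 0.253 to 0.720. The log2 fold changes, High minus Moderate on the log2(value + 0.5) scale, were positive for 6 of 7 members with a median of 0.16, and 56.3% of all tested miRNAs were positive with a median of 0.03. Without Moderate replicate 5, 4 of 7 were positive with a median of 0.01 (all tested miRNAs 50.9% and 0.00), and 0 of 7 passed, where 11.7% of 385 did. In edgeR 0 of 7 passed, where 9.52% of 378 did, and 0 had an unadjusted p under 0.05, where 24.6% did. In DESeq2 0 of 7 passed, where 5.61% of 838 did, and 1 of 7, miR-30f, had an unadjusted p under 0.05, where 12.3% did. With upper-quartile scaling 2 of 7, miR-30d and miR-30f, had an unadjusted p under 0.05 in limma, where 23.2% of all tested did. With library totals and without Moderate replicate 5, 3 of 7 did (these and miR-30a-5p), where 27.8% of all tested did. The unadjusted p of miR-30f was under 0.05 in 12 of 43 alternative fits, and its adjusted p was above the threshold in each.

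miR-30a-5p was at 6131, 7809 and 8868 (lowest, median and highest) under High and at 2684, 7035 and 8843 under Moderate. The diets overlapped over nearly the whole range, and 10 of 15 High libraries lay above the Moderate median. The log2 fold change was 0.17 with a standard error of 0.11 (limma, adjusted p = 0.398). Without Moderate replicate 5 it was 0.08, with a 95% confidence interval of -0.06 to 0.22.

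miR-30e-5p was at 4467, 5408 and 6208 under High and at 988, 5039 and 6595 under Moderate. Its highest library was a Moderate one. The log2 fold change was 0.17 with a 95% confidence interval of -0.16 to 0.51, the widest of the 7. Leaving out Moderate replicate 5 brought it to 0.01 (-0.11 to 0.14), and the interval then excluded a fold above 1.098 or below 0.926.

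miR-30d was at 2982, 3443 and 3908 under High and at 1343, 3169 and 4039 under Moderate. Of the High libraries, 12 of 15 lay above the Moderate median, the most of any member. Its log2 fold change was 0.16 ± 0.09 (standard error; limma, adjusted p = 0.346), and 0.08 without Moderate replicate 5 (limma, adjusted p = 0.324). The interval of the latter, -0.02 to 0.17, included no difference.

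miR-30b-5p, from the gene beside that of miR-30d, was at 576, 680 and 749 under High and at 160, 702 and 782 under Moderate. Only 3 of 15 High libraries lay above the Moderate median, yet the log2 fold change was 0.10 (95% confidence interval -0.18 to 0.39). Without Moderate replicate 5 the sign turned, to -0.04 (-0.13 to 0.06), so with TMM scaling the direction of this member rested on that 1 library. With library totals in place of TMM it was 0.03 without Moderate replicate 5. The mean was 673 ± 41.7 under High and 657 ± 151 under Moderate, and 692 ± 65.8 over the 14 other Moderate libraries.

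miR-30c was at 818, 1102 and 1220 under High and at 496, 1037 and 1353 under Moderate, with both its lowest and its highest library under Moderate. Its log2 fold change was 0.07 (95% confidence interval -0.12 to 0.26), and -0.01 (-0.12 to 0.11) without Moderate replicate 5. miR-30b-3p was at 0.961, 1.78 and 2.73 under High and at 1.31, 1.87 and 3.24 under Moderate. It was the 1 member with a negative log2 fold change, of -0.11 (-0.34 to 0.11), which was 0.04 with library totals alone in place of TMM.

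miR-30f had the largest log2 fold change of the family, and it too did not pass. It was at 73.3, 104 and 137.4 under High and at 51.4, 91.3 and 115 under Moderate. Of the High libraries, 3 lay above every Moderate library, and 10 of 15 lay above the Moderate median. The log2 fold change was 0.20 with a standard error of 0.10 (limma, p = 0.0561, adjusted p = 0.253), and 0.15 without Moderate replicate 5 (limma, adjusted p = 0.286). A fold of up to 1.33 lay within its interval over the 30 libraries.

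**Figure D5:**
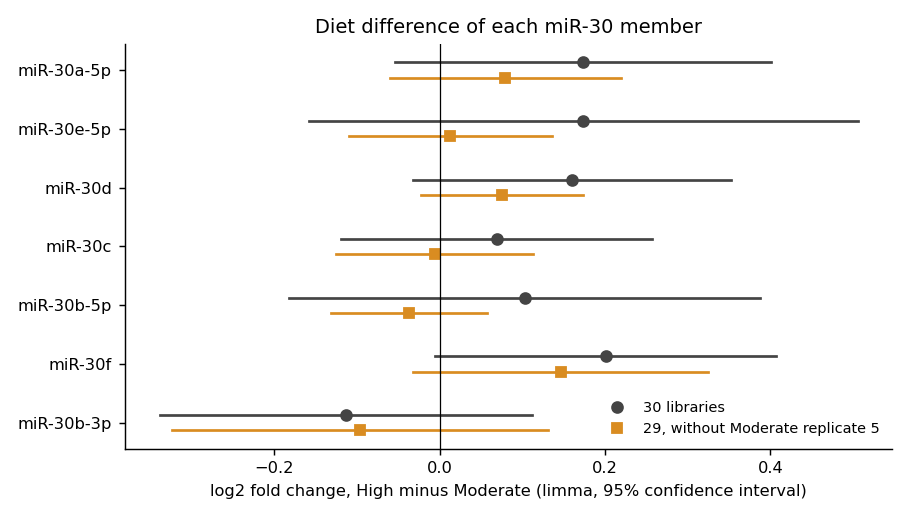
Log2 fold change of each member, High minus Moderate, with its 95% confidence interval in limma, over 30 libraries (grey circles) and without Moderate replicate 5 (orange squares). All 14 intervals include 0, and the estimates for miR-30b-5p and miR-30c change sign without that library.

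The summed family value averaged 18211 ± 1637 for High (n = 15) and 16852 ± 3687 for Moderate (n = 15), and 17647 ± 2106 over the 14 other Moderate libraries. On the log2 scale the difference of the means was 0.16, and 0.05 without Moderate replicate 5. It was 0.37 with library totals, which raised the median log2 fold change of all tested miRNAs to 0.21, and 0.32 in the 12 libraries in which title and characteristic coincide. The mean shares of the members in the family total were close between diets. miR-30a-5p made up 41.5% ± 1.78 of the total under High and 41.0% ± 2.21 under Moderate, and 40.6% ± 1.56 over the 14 other Moderate libraries. For miR-30e-5p these shares were 29.3% ± 0.738, 29.25% ± 3.54 and 30.1% ± 1.29, and for miR-30d 18.96% ± 1.12, 18.9% ± 1.65 and 18.6% ± 1.12. For miR-30c the shares were 5.95% ± 0.315 and 6.35% ± 0.776, and 6.19% ± 0.459 over the 14 other Moderate libraries. Some ratios between 2 members leaned to one side. Those of miR-30a-5p to miR-30e-5p and of miR-30d to miR-30c lay above the Moderate median in 13 of 15 High libraries. Those of miR-30e-5p to miR-30d and of miR-30c to miR-30f did so in 3 of 15. These were the most one-sided of all member pairs and were not tested.

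Depth and labels gave no call for a member either. Among the 24 libraries under 12 M reads (11 High, 13 Moderate), the 7 log2 fold changes ran from -0.17 to 0.20 with adjusted p of at least 0.469 in limma. In the 6 deeper libraries (4 High, 2 Moderate) the difference in mean log2 value was 0.09 for miR-30a-5p, -0.02 for miR-30e-5p, 0.10 for miR-30d, 0.00 for miR-30c, 0.11 for miR-30b-5p and 0.36 for miR-30f, and was not tested. miR-30b-3p stood at 0.24 there and at -0.17 in the shallower libraries. With the diet of the titles, 0 of 7 passed in limma, where 0 of all 387 tested miRNAs did (0% called), and miR-30b-3p had an unadjusted p under 0.05, where 2.84% of all tested did. In the 12 libraries (6 per diet) in which title and characteristic coincide, 0 of 7 passed (0% of 391 called), and the log2 fold changes ran from 0.15 to 0.42. Without Moderate replicate 5, which is 1 of these 12, they ran from -0.07 to 0.23.

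Other miRNAs are given from 3 lists: miRNAs that target RUNX2, repressors of matrix and fibrosis genes, and miRNAs of the epithelial state. They stand beside the 4.91% of all tested miRNAs that passed over 30 libraries and the 11.7% without Moderate replicate 5. Among 7 tested miRNAs that target RUNX2 besides miR-30c, 1 rose (miR-34c, log2 fold change 0.96, adjusted p = 0.0260 in limma), 0 fell and 6 did not pass, with a median of 0.04 against 0.03 for all tested miRNAs. In the 29 libraries left without Moderate replicate 5, 1 again rose and the median was -0.04. miR-34c is also abundant in meiotic and later germ cells. The summed value of miR-34b, miR-34c and miR-449a was 89.3 to 265 under High and 21.9 to 185 under Moderate. The 21.9 was that of Moderate replicate 5, and the lowest of the other Moderate libraries was 40.5. miR-449a had a log2 fold change of 0.02 (limma, adjusted p = 0.949). In the RUNX2 list, miR-338 had a log2 fold change of 0.17 (limma, adjusted p = 0.476) and miR-133a one of 0.06 (adjusted p = 0.851). Of the 26 tested markers of other cell types, miR-34b and miR-34c rose and 24 did not pass, where 4.91% of all tested did. With Moderate replicate 5 left out, the leukocyte miR-146b (1.09, adjusted p = 0.0358 in limma) and the striated muscle miR-499 (0.41, adjusted p = 0.0127) rose as well, where 11.7% of all tested passed. No other marker of these 2 cell types passed there. The median log2 fold change was -0.06 over the 7 tested leukocyte markers and 0.04 over the 3 tested striated muscle markers.

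Among 9 tested miRNAs that repress matrix and fibrosis genes, 0 passed, with a median of 0.12. Without Moderate replicate 5, 2 of the 9 rose, where 11.7% of all tested passed. They were miR-29c (0.28, adjusted p = 0.00645 in limma) and miR-29a (0.13, adjusted p = 0.0373), both repressors of collagen genes, and the median was 0.00. miR-29d-5p, the third by p, stood at 0.24 in these 29 libraries and did not pass. Of 6 tested miRNAs of the epithelial state, 0 passed, with a median of -0.20 (miR-200a -0.33, miR-194 0.15, miR-200b -0.27). miR-133a is in both the RUNX2 and the matrix list.

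The miRNAs whose level most nearly kept pace with the leading members were found by the SD of the log2 ratio over the 30 libraries, among the 380 tested miRNAs outside the family. For miR-30a-5p they were miR-93 (SD 0.17), miR-29a (0.18) and miR-450b (0.18), where the median over all 380 was 0.42. For miR-30e-5p they were miR-20a (0.15), miR-17-5p (0.16) and miR-450a (0.18), where the median was 0.51. For miR-30d they were miR-93 (0.14), miR-450b (0.15) and miR-17-3p (0.15), where the median was 0.38. miR-30d was itself the member closest to miR-30a-5p over 30 libraries, with an SD of 0.13.

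This ranking depended on Moderate replicate 5, in which these miRNAs and the miR-30 members were low together. Over the 29 other libraries miR-148b came first for all 3 members, with an SD of 0.15 for miR-30a-5p, 0.14 for miR-30e-5p and 0.098 for miR-30d. miR-93 then stood 4th for miR-30a-5p and 10th for miR-30d, and miR-20a 6th for miR-30e-5p. All ratios share the member's own values, and none of the named miRNAs passed the diet test over the 30 libraries.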

How the data were processed

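Per the labels' protocols, RNA was purified with a Qiagen RNeasy kit and libraries were prepared with a TruSeq kit for small RNA. FastQC 0.11.8, cutadapt 2.6, R 3.4 and edgeR 3.5 were used, per the submitters' processing notes; no source used here names the aligner, miRNA reference or genome build. The table that the authors deposited holds a normalized signal per miRNA and library. Low values in a column are multiples of 1 step, the value of a single read, and whole reads were recovered for 95.3% of the 18379 values above 0 (tolerance 0.02 read).

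The main test was limma 3.58.1 (R 4.3.3) on log2(value + 0.5), with its trended variance prior, fitted on all 387 miRNAs that reached a value of 1 in 15 or more libraries, two-sided, with Benjamini-Hochberg adjustment and a threshold of 0.05. The arm ratio was tested by permutation with 100000 resamples. edgeR 4.0.16 and DESeq2 1.42.0 were run on the recovered reads, with fractions rounded to whole reads. Of these, limma and edgeR were tried on simulated data, and DESeq2 and the permutation test were not. Apart from planted diet changes, all simulated libraries had the same make-up, so none was like Moderate replicate 5. The outcome of that trial is not given here. Alternatives were other pseudocounts (0.1, 2), filters, scalings, depths, labels and leaving out each library in turn.

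A value of 0 allows up to 3 reads, or 0.138 to 1.43 units depending on the library, for counting error only. Replicate numbers follow accession order.

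All members of the family are named. Named besides are the 3 miRNAs with the steadiest ratio to each of the 3 leading members, up to 3 miRNAs with the smallest p per companion list, and marker miRNAs, chosen after their values were seen. miR-26a and miR-29b of the matrix list were likewise named after their values were seen. Part of the rule, on miRNAs sharing a seed, needs sequences that were not used here. Members and lists were chosen with earlier results of these data known. Gene neighbours come from RefSeq (ARS-UCD2.0), in which 7 of 7 members matched a gene.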

Additional observations from a re-analysis of the deposited data

How the results depend on the processing

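No paired analysis was run, because the labels used here give no pairing of calves, and the replicate numbers tie none together. No miR-30 member passed under any of the 43 alternatives run in limma, edgeR or DESeq2 (lowest adjusted p = 0.119, miR-30f with library totals and without Moderate replicate 5), and 292 of 301 log2 fold changes kept their sign. The 9 that turned were those of miR-30b-3p with library totals (0.038), with the diet of the titles (0.23) and in the 12 libraries whose labels agree (0.15, and 0.23 without Moderate replicate 5), of miR-30b-5p (-0.037; 0.126 at most with another library left out) and miR-30c (-0.0061; 0.097 at most) without Moderate replicate 5, of miR-30b-5p in the 12 libraries without it (-0.070), and of miR-30b-5p (-0.066) and miR-30c (-0.0043) among the libraries under 12 M reads without it. The arm ratio difference turned with the diet of the titles (-0.11, permutation p = 0.666) and ran from 0.060 to 0.25 when each library was left out. The difference in the summed value then ran from 0.05 to 0.18, and was 0.37 with library totals and 0.32 in the 12 libraries. In these 2 results the lowest value came without Moderate replicate 5. Library totals moved the median log2 fold change of all tested miRNAs from 0.03 to 0.21.

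Of all tested miRNAs, 19 passed. The count was 0 without a filter (104 at an unadjusted p under 0.05), with library totals (61), with the diet of the titles (11) and in the 12 libraries (43, and 69 without Moderate replicate 5). It was 36 in edgeR, 47 in DESeq2, 3 among the libraries under 12 M reads, and 31 with library totals, as under 12 M reads, once Moderate replicate 5 was left out. It ran from 0 to 45 when each library was left out, 0 without High replicate 5 and 45 without Moderate replicate 5. The cause of these shifts was not tested. Settings that also leave out Moderate replicate 5 were chosen after seeing the data. Depth limits miR-30b-3p alone, at 5 to 43 reads per library.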
